A study of Mus musculus with 8 samples.

Results

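Spib, Runx2, Bcl11a, Zeb2, Ets1, Runx1, Runx3 and Cbfb code for transcription factors, and a partner protein, with described roles in plasmacytoid dendritic cells (pDC). They were taken by gene symbol from a table of RNA sequencing read counts. All 8 were found among its 27179 gene IDs, and all 8 passed the filter on low counts that left 14238 genes for testing. The RNA came from pDC and conventional dendritic cells (cDC), both sorted from the spleens of C57BL/6 mice that carried a leukemia. The mice had received panobinostat, an inhibitor of histone deacetylases, or vehicle for 2 days. The 4 groups were thus vehicle pDC, panobinostat pDC, vehicle cDC and panobinostat cDC, with 2 libraries each, and every group came from leukemic animals, so none describes a healthy spleen. Each library pooled 3 to 6 mice, and the labels name neither the leukemia model nor the dose, the age of the mice or the sorting markers. One protocol label describes the sorted population as leukemia cells, whereas the sample titles give pDC or cDC, so the cell types were checked against marker genes below.

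pDC are the dendritic cells known for making large amounts of type I interferon, and they share a B cell-like transcription program with lymphocytes. The E protein encoded by Tcf4 stands at the centre of that program, and Id2, an inhibitor of E proteins, opposes it in cDC. SPIB is an ETS family factor that acts with TCF4 in pDC and is also used by B cells. BCL11A, a zinc finger repressor and activator, is needed for pDC and B cell development, and ZEB2, another zinc finger repressor, is known to hold Id2 down in pDC. RUNX2, the Runx protein of bone formation, is known in pDC for control of their exit from the bone marrow through chemokine receptors such as Ccr2. RUNX1 acts in blood stem cells and many lineages, RUNX3 in cytotoxic lymphocytes and some cDC, and all 3 bind DNA together with the non-DNA-binding partner CBFB. ETS1 is a lymphoid ETS factor.

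The 3 Runx genes share a sequence at a promoter, shown here because they are paralogs whose RNA levels are compared with each other further on. RUNX proteins bind the letters TGTGGT, or ACCACA on the opposite strand. In the RefSeq promoter table (GRCm38.p6, 250 bases before to 50 after each listed start), 16.8% of 32851 windows hold this single motif on either strand. A tandem form with a 2-base spacer, ACCACANNACCACA (or TGTGGTNNTGTGGT), stands in 7 of the 32851 windows (0.0213%). These belong to Runx1, Runx2, Runx3, Gm12236, Gm15462, Gm16225 and Olfr24. The tandem form contains 2 copies of the single motif, so both searches overlap. The 30 bases around it are given 5′ to 3′ on the gene's strand, with both copies in capitals:
Runx1 (chr16:92826025-92826054, minus strand): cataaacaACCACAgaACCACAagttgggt
Runx2 (chr17:44814583-44814612, minus strand): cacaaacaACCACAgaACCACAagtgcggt
Runx3 (chr4:135120503-135120532, plus strand): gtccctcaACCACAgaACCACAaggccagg
The spacer is the same in all 3. The pair begins 28 bases after the listed start of Runx1, 23 bases after that of Runx2 and 134 bases before that of Runx3. For Runx1 and Runx3 this is the more upstream of 2 listed starts, which lie 128745 and 31900 bases apart, and Runx2 has 1 listed start. The windows of Spib, Bcl11a and Zeb2 hold no match to TGTGGT, to the E-boxes CAGCTG and CAGGTG, to GAGGAAGT or to the BCL11A motif TGACCA, each searched on both strands. The last 4 stand in 16.3%, 20.2%, 3.2% and 13.6% of all windows, and GAGGAAGT, a PU.1 and SPIB motif, lies 2 bases after the start of Cbfb. A match is a description of the letters and does not show binding, and counts per gene do not tell which start was used.

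By GRCm38 annotation the 8 genes lie on 8 chromosomes. Spib (Entrez Gene ID 272382) spans chr7:44525993-44532071 on the minus strand, Runx2 (12393) chr17:44495987-44814797 on the minus strand, and Bcl11a (14025) chr11:24078056-24174123 on the plus strand. Zeb2 (24136) spans chr2:44983632-45117395 on the minus strand and Ets1 (23871) chr9:32636221-32757820 on the plus strand. Runx1 (12394) spans chr16:92601466-92826149 on the minus strand, Runx3 (12399) chr4:135120652-135177990 on the plus strand, and Cbfb (12400) chr8:105170674-105217989 on the plus strand.

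Total counts were 13124861 to 20657429 per library. Panobinostat pDC replicate 2 stood apart: it had the lowest total and 10745 genes with at least 1 count, against 14927 in its partner and 16109 to 19950 in the other 6. The fitted differences that rest on panobinostat pDC and are named for the 8 genes are therefore also given without it. In several comparisons far more of all genes passed when a panobinostat pDC library was left out, as given at the end. A call gained in such a fit is therefore not particular to that gene. The summed level of 15 pDC marker genes was 13900 to 23600 CPM (counts scaled to a library size of 1000000 after TMM normalisation) in pDC and 304 to 398 in cDC. Siglech, a pDC surface lectin, was 4060 to 6550 CPM in pDC and 1.57 to 3.26 in cDC. The 15 cDC marker genes divided less clearly, with sums of 2120 to 4150 CPM in pDC and 3600 to 4890 in cDC. In vehicle 6 of them were lower in pDC, 2 were higher and 7 did not pass, and in panobinostat these were 7, 2 and 6. Zbtb46, a cDC transcription factor, was 2.37 to 19.6 CPM in pDC and 137 to 200 in cDC, and Xcr1, a receptor of cross-presenting cDC, 0 to 4.6 and 257 to 601. The 2 higher in pDC in both treatments were Cd209a, at 754 to 1880 CPM in pDC and 81.3 to 142 in cDC, and Clec10a, at 381 to 666 and 3.74 to 16.8, both lectins. Clec9a, another lectin of cDC, overlapped at 164 to 310 and 107 to 283 CPM. The pDC markers thus separated the libraries as their titles do, while the cDC markers did so only in part. The sample titles name no deleted or targeted gene, and the leukemia model is not given.

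pDC and cDC were compared first, within each treatment. Levels are CPM, means are given ± SD with n = 2, and each difference is a log2 fold change ± its standard error (SE), followed by the 95% interval. The adjusted p values come from the quasi-likelihood test of edgeR, with the Benjamini-Hochberg procedure applied to all 14238 genes, and a gene below 0.05 is said to have passed. The replicates are pools of mice, and the p values measure the spread between these pools. In vehicle, Spib, Runx2 and Bcl11a were higher in pDC, and 3 of the 8 genes passed, beside 9.73% of all genes tested (5.01% higher and 4.71% lower). All 3 were again higher in panobinostat pDC than in panobinostat cDC, beside 18.0% of all genes (7.76% higher and 10.2% lower). Without regard to the test, 5 genes had both vehicle pDC libraries above both vehicle cDC libraries and 3 had them below, beside 35.1% and 35.5% of all genes. In panobinostat these were 6 and 1, beside 24.7% and 38.0%. At an unadjusted p under 0.05 there were 6 genes in each treatment, beside 24.5% of all genes in vehicle and 34.8% in panobinostat. The median log2 difference of the 8 genes was 1.72 in vehicle and 1.61 in panobinostat, and that of all genes 0.02 and -0.18.

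**Figure D1:**
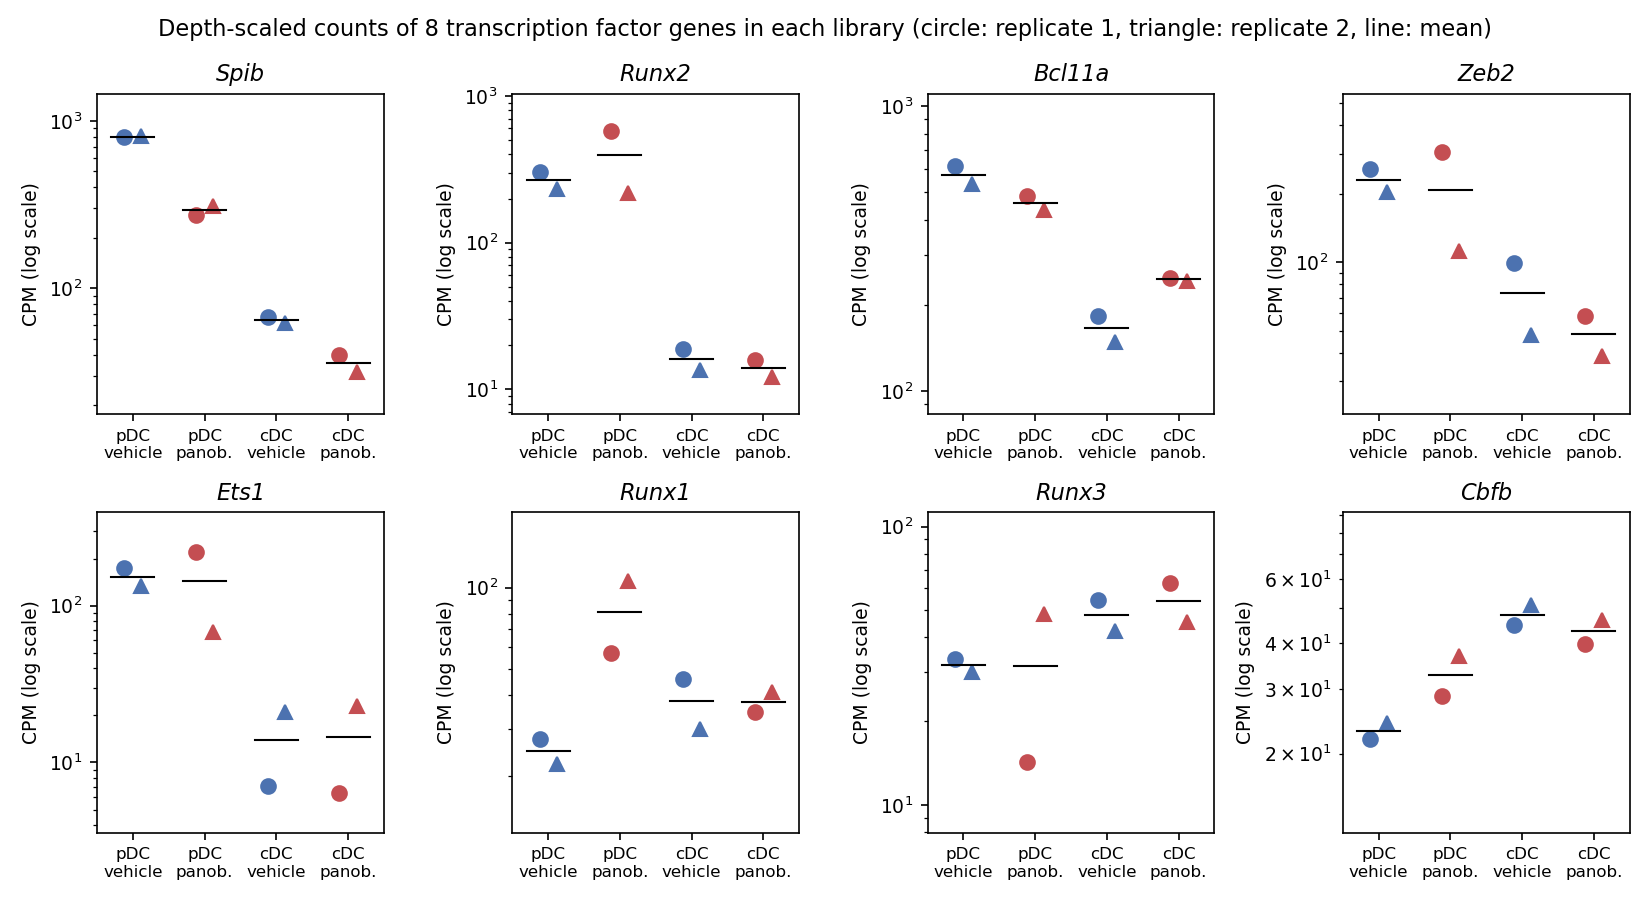
Depth-scaled counts (CPM, log axis, a scale of its own in each panel) of the 8 genes in the 8 libraries, with circles for replicate 1, triangles for replicate 2 and a line at the group mean. Spib takes 4 separate levels, with means from 805 to 35.9 CPM, Runx2 is at least 217 CPM in every pDC library and at most 18.9 in every cDC library, and Runx1, Runx3 and Cbfb stay between 14.3 and 106 CPM in all 8 libraries.

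Spib was 801 and 809 CPM in pDC after vehicle, 272 and 312 after panobinostat, 67.4 and 62.2 in cDC after vehicle and 40.0 and 31.8 after panobinostat. The 4 groups did not overlap, and the order from high to low was vehicle pDC, panobinostat pDC, vehicle cDC, panobinostat cDC. In vehicle the pDC level exceeded the cDC level by 3.63 ± 0.20 log2 units (3.15 to 4.12), or 12.4-fold, from 64.8 ± 3.64 to 805 ± 5.8 CPM (adjusted p = 0.00103). In panobinostat the difference was 3.02 ± 0.20 (2.55 to 3.49), or 8.13-fold (adjusted p = 0.00114). The latter was 2.86 ± 0.20 without panobinostat pDC replicate 2 (adjusted p = 0.000557). The call held in 16 of 16 processing alternatives in both treatments. In these bulk libraries, fewer cells that express a gene and less RNA of it per cell cannot be told apart.

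Runx2 was 303 and 233 CPM in pDC after vehicle, 577 and 217 after panobinostat, 18.9 and 13.6 in cDC after vehicle and 15.8 and 12.2 after panobinostat. Every pDC library was far above every cDC library, while the treatments overlapped within each cell type. The pDC level was 4.05 ± 0.52 log2 units higher in vehicle (2.79 to 5.31; 16.5-fold; adjusted p = 0.00773). It was 4.83 ± 0.54 higher in panobinostat (3.52 to 6.13; 28.4-fold; adjusted p = 0.00413), 5.31 ± 0.31 without panobinostat pDC replicate 2 (adjusted p = 0.000343) and 3.95 ± 0.29 without replicate 1 (adjusted p = 0.000161). The vehicle call was lost without vehicle pDC replicate 1 (3.85, adjusted p = 0.054), vehicle cDC replicate 1 (4.31, adjusted p = 0.0659) or vehicle cDC replicate 2 (3.83, adjusted p = 0.0852). The panobinostat call was lost without panobinostat cDC replicate 2 (4.64, adjusted p = 0.0515) and with the 4 libraries of that comparison alone (4.80, adjusted p = 0.073).

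Bcl11a was 616 and 532 CPM in pDC after vehicle, 482 and 431 after panobinostat, 184 and 149 in cDC after vehicle and 250 and 244 after panobinostat. It was the only 1 of the 3 that cDC also held at a high level: in vehicle cDC its mean was above that of 93.1% of all genes tested, against 78.7% for Spib and 48.6% for Runx2. The order of its groups was vehicle pDC, panobinostat pDC, panobinostat cDC, vehicle cDC, with no overlap between neighbours. The difference between cell types was 1.78 ± 0.19 log2 units in vehicle (1.33 to 2.24; 3.44-fold; adjusted p = 0.00392). In panobinostat it was 0.89 ± 0.18 (0.44 to 1.33; 1.85-fold; adjusted p = 0.0258), and 0.91 ± 0.21 without panobinostat pDC replicate 2 (adjusted p = 0.0198). The vehicle call was lost without vehicle cDC replicate 2 (1.64, adjusted p = 0.0503). The panobinostat call was lost in 8 of 16 alternatives, with differences of 0.80 to 0.90 and adjusted p values of 0.0539 to 0.174: library size as the only scaling, the 4 libraries alone, and the omission of any 1 library other than those of panobinostat pDC.

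Zeb2 and Ets1 were also higher in every pDC library than in every cDC library, but neither passed the test. Zeb2 was 258 and 204 CPM in pDC after vehicle, 307 and 112 after panobinostat, 99.3 and 48.2 in cDC after vehicle and 58.4 and 38.7 after panobinostat. The replicates lay farthest apart in panobinostat pDC and vehicle cDC, and replicate 1 was the higher of the pair in all 4 groups. The difference was 1.65 ± 0.56 log2 units in vehicle (0.28 to 3.01; adjusted p = 0.133) and 2.11 ± 0.57 in panobinostat (0.72 to 3.49; adjusted p = 0.0517). With the replicate number as a block, Zeb2 passed in both, at 1.75 (adjusted p = 0.0316) and 1.99 (adjusted p = 0.0186). Without panobinostat pDC replicate 2 the panobinostat difference was 2.60 ± 0.45 (adjusted p = 0.00807), and without replicate 1 it was 1.20 ± 0.45 (adjusted p = 0.0561). In vehicle the call was also gained without either panobinostat pDC library, which enters that comparison only through the shared estimate of the spread (1.66 and 1.62, adjusted p = 0.0198 and 0.0225). Zeb2os, a transcript on the opposite strand, shares 653 exon bases with Zeb2. Its counts were 250 and 388 in pDC after vehicle, 190 and 159 after panobinostat, 93 and 82 in cDC after vehicle and 67 and 51 after panobinostat, against 713 to 6191 for Zeb2. Whether strand was used in the counting is not given in the sources used here, so reads of this stretch cannot be assigned with certainty.

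Ets1 was 173 and 133 CPM in pDC after vehicle, 220 and 68.2 after panobinostat, 7.04 and 21 in cDC after vehicle and 6.41 and 22.8 after panobinostat. In cDC the replicates of a treatment lay farther apart than the treatments did. The pDC level was 3.45 ± 0.91 log2 units higher in vehicle (1.26 to 5.64; adjusted p = 0.0668) and 3.31 ± 0.90 in panobinostat (1.13 to 5.49; adjusted p = 0.0522). In vehicle it passed without either panobinostat pDC library (3.46 and 3.43, adjusted p = 0.0146 and 0.0141). In panobinostat it was 3.87 ± 0.80 without panobinostat pDC replicate 2 (adjusted p = 0.0142) and 2.22 ± 0.80 without replicate 1 (adjusted p = 0.0493). Sums of lymphocyte markers were also higher in replicate 2 of each cDC pair. The summed T cell markers (17 genes) were 321 and 577 CPM in vehicle cDC and 515 and 966 in panobinostat cDC, the NK cell markers (14 genes) 194 and 263, and 262 and 625, and the B cell markers (15 genes) 1160 and 2240, and 682 and 997. Across treatments the B cell sum did not follow Ets1, with 1160 CPM at the Ets1 level of 7.04 and 997 at 22.8. Most of the T cell sum was Cd8a (162 and 414, and 344 and 765 CPM) and Cd4 (106 and 94.4, and 126 and 91 CPM), which dendritic cells are known to express themselves. Among the low T cell markers Tcf7 (16.5 and 15.9, and 7.81 and 9.83 CPM), Cd5 (18.4 and 13.1, and 18.4 and 14.8 CPM), Cd6, Lat and Bcl11b did not share the pattern of the replicates in both pairs. Cd3e, which defines T cells, did: it was 0.559 and 2.31 CPM in vehicle cDC and 0.241 and 2.34 in panobinostat cDC. Cd3d, Cd3g, Cd247, Thy1, Trac and Lck (1.35 and 13.3, and 2.46 and 38.9 CPM) did so too. All NK cell markers but Tbx21 were higher in replicate 2 of both pairs, among them Nkg7 (0.606 and 9.51, and 2.6 and 58.6 CPM). No marker of the 3 lists was at 0 in all 4 cDC libraries. The part of these cells in the Ets1 values was not tested.

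Runx1, Runx3 and Cbfb were lower in both vehicle pDC libraries than in both vehicle cDC libraries, and none passed. Cbfb was 21.9 and 24.3 CPM in pDC after vehicle, 28.7 and 36.9 after panobinostat, 44.9 and 50.8 in cDC after vehicle and 39.9 and 46.5 after panobinostat. Both vehicle pDC libraries were below the cDC libraries, and panobinostat pDC lay between them. The vehicle difference was -1.05 ± 0.29 log2 units (-1.75 to -0.35; adjusted p = 0.0751), and it was -1.07 ± 0.16 with an adjusted p of 0.0044 without panobinostat pDC replicate 2 and -1.04 ± 0.16 with 0.00485 without replicate 1. The panobinostat difference was -0.40 ± 0.29 (-1.09 to 0.29; adjusted p = 0.372). It was -0.65 ± 0.20 without panobinostat pDC replicate 2 (adjusted p = 0.0497) and -0.23 ± 0.20 without replicate 1 (adjusted p = 0.328).

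Runx3 was 33.5 and 30.0 CPM in pDC after vehicle, 14.3 and 48.7 after panobinostat, 54.4 and 42.3 in cDC after vehicle and 62.7 and 45.6 after panobinostat. Panobinostat pDC held both the lowest value and one within the cDC range. The differences were -0.61 ± 0.56 in vehicle (-1.97 to 0.76; adjusted p = 0.63) and -0.79 ± 0.57 in panobinostat (-2.15 to 0.58; adjusted p = 0.374). Without panobinostat pDC replicate 2 the latter was -1.98 ± 0.31 (adjusted p = 0.00548), and without replicate 1 it was -0.16 ± 0.27 (adjusted p = 0.616). Runx1 was 27.5 and 22.2 CPM in pDC after vehicle, 57.2 and 106 after panobinostat, 45.9 and 29.9 in cDC after vehicle and 34.5 and 41.0 after panobinostat. It stood lowest in vehicle pDC and highest in panobinostat pDC, with both cDC groups between and overlapping. Its differences were -0.61 ± 0.39 in vehicle (-1.56 to 0.34; adjusted p = 0.437) and 1.11 ± 0.40 in panobinostat (0.15 to 2.07; adjusted p = 0.103). The latter was 0.54 ± 0.30 without panobinostat pDC replicate 2 (adjusted p = 0.201) and 1.48 ± 0.29 without replicate 1 (adjusted p = 0.00568).

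**Figure D2:**
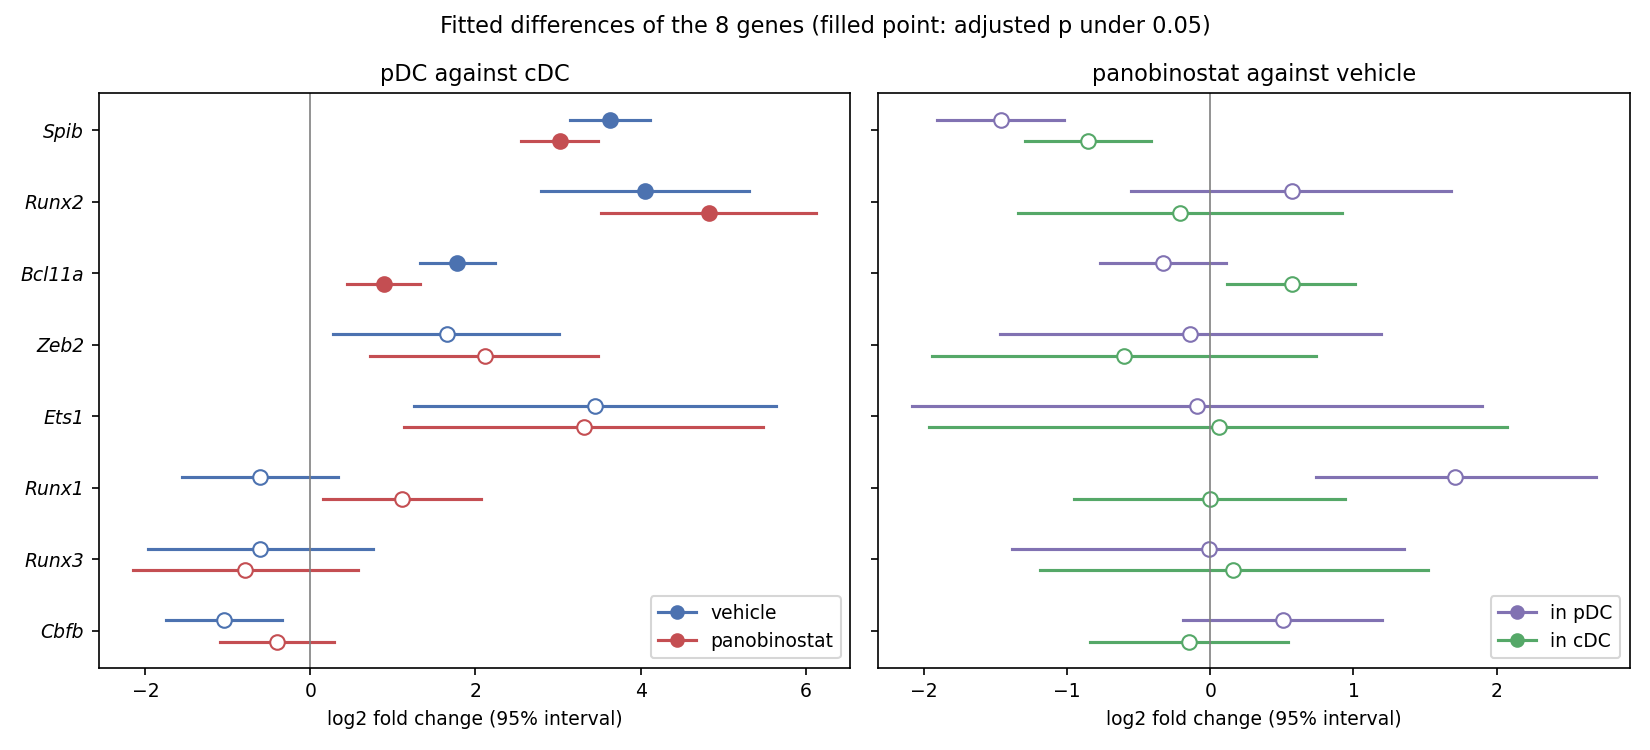
Fitted log2 fold changes of the 8 genes with 95% intervals, pDC against cDC in vehicle and panobinostat (left) and panobinostat against vehicle in pDC and cDC (right), where a filled point has an adjusted p under 0.05. The filled points are Spib, Runx2 and Bcl11a in the left panel, and no point is filled in the right panel.

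Levels were compared between genes after division by transcript length, as CPM per kilobase of the longest RefSeq-linked transcript (2788 bases for Spib, 6463 for Runx2). In vehicle pDC the means per kilobase were 289 for Spib, 95.8 for Bcl11a, 41.5 for Runx2, 41.1 for Zeb2, 30.2 for Ets1, 8.17 for Runx3, 7.98 for Cbfb and 4.24 for Runx1. Spib and Bcl11a stood apart from the rest beyond the spread of the libraries. The library values of Runx2 (46.9 and 36.0) and Zeb2 (45.9 and 36.2) overlapped, as did those of Runx3 (8.62 and 7.71) and Cbfb (7.57 and 8.40). In vehicle cDC the means were 27.8 for Bcl11a, 23.2 for Spib, 16.5 for Cbfb, 13.1 for Zeb2, 12.4 for Runx3, 6.46 for Runx1, 2.76 for Ets1 and 2.51 for Runx2. Bcl11a led there in place of Spib, and Cbfb stood above all 3 Runx genes. Over the whole exon length of the annotation instead, the sequence changed where lengths differ most: Zeb2 has 19942 in place of 5624 bases and Bcl11a 13175 in place of 5989. In vehicle pDC the means were then 281 for Spib, 43.5 for Bcl11a, 30.3 for Runx2, 18.1 for Ets1 and 11.6 for Zeb2, which fell below Ets1. In vehicle cDC they were 22.6 for Spib, 13.7 for Cbfb, 12.6 for Bcl11a and 9.66 for Runx3, so Spib led and Bcl11a overlapped with Cbfb. The places of Zeb2 and of Bcl11a thus depend on the transcript counted, while Cbfb stood above the 3 Runx genes of vehicle cDC by both lengths.

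The makeup of the Runx family differed between the cell types. Runx2 made up 77.9% and 75.8% of the 3 Runx genes' summed CPM per kilobase in pDC after vehicle, 86.9% and 52.4% after panobinostat, 11.8% and 11.6% in cDC after vehicle and 10.0% and 9.13% after panobinostat. Runx2 was the most abundant Runx transcript in all 4 pDC libraries. Runx3 made up 14.3% and 16.2% in pDC after vehicle, 3.58% and 19.5% after panobinostat, 56.6% and 60.2% in cDC after vehicle and 65.9% and 57.0% after panobinostat. It was the most abundant in all 4 cDC libraries. Runx1 took 7.78% to 9.49% in 3 pDC libraries and 28.1% in panobinostat pDC replicate 2, and 24.1% to 33.9% in cDC.

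The 3 genes summed to 60.2 and 47.5 CPM per kilobase in pDC after vehicle, 103 and 64.2 after panobinostat, 24.8 and 18.1 in cDC after vehicle and 24.5 and 20.6 after panobinostat. The sum was higher in every pDC library than in every cDC library, the reverse of the order of Cbfb in vehicle. The ratio of the Runx sum to Cbfb, the shared partner, was 7.96 and 5.66 in pDC after vehicle, 10.3 and 5.03 after panobinostat, 1.59 and 1.03 in cDC after vehicle and 1.77 and 1.28 after panobinostat. RNA per kilobase is not protein, and these ratios carry no test of their own.

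**Figure D3:**
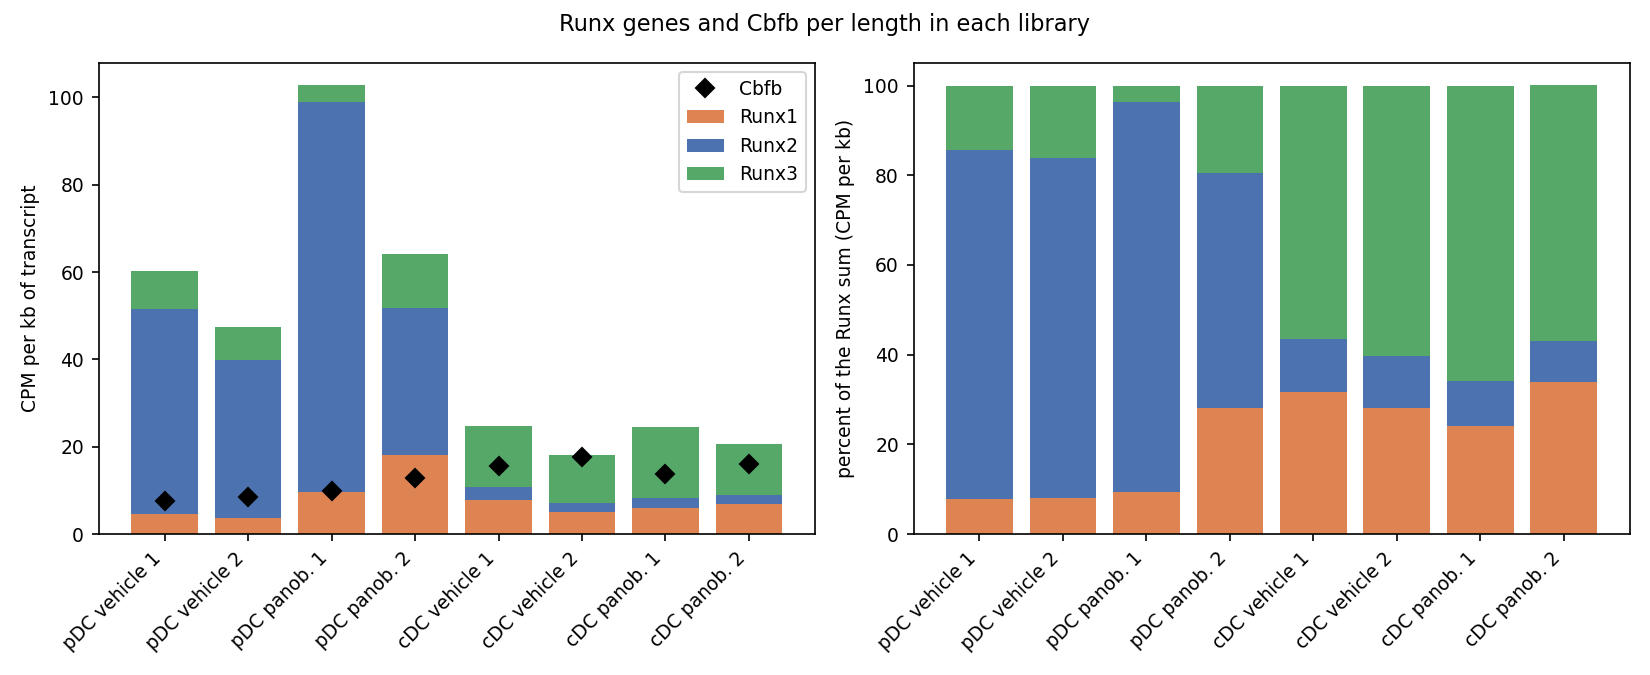
CPM per kilobase of transcript (left, stacked bars for Runx1, Runx2 and Runx3, diamonds for Cbfb) and each Runx gene's percent of their sum (right) in each of the 8 libraries. Runx2 makes up 52.4% to 86.9% of the sum in pDC libraries and 9.13% to 11.8% in cDC libraries, where Runx3 makes up most of it.

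The second comparison asked what 2 days of panobinostat did to these transcripts in pDC. None of the 8 passed, beside 0.0913% of all genes (13 of 14238, with 2 higher, 0.014%, and 11 lower, 0.0773%). At an unadjusted p under 0.05 there were 2, Spib and Runx1, beside 14.9% of all genes. The groups did not overlap for 4 genes: Runx1 and Cbfb were above vehicle in both libraries (15.7% of all genes were) and Spib and Bcl11a below (26.5% were). The median of the 8 log2 fold changes was -0.05 and that of all genes -0.14.

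Spib had the smallest p of the 8, and stood 27th by p among the 14238 genes. Its level was 272 and 312 CPM with panobinostat against 801 and 809 with vehicle, so both treated libraries lay below the untreated ones. The log2 fold change was -1.46 ± 0.18 (-1.91 to -1.02), from 805 ± 5.8 to 292 ± 28.9 CPM or 2.76-fold lower (unadjusted p = 0.000161, adjusted p = 0.0852). It was -1.62 ± 0.23 without panobinostat pDC replicate 2 (adjusted p = 0.022) and -1.37 ± 0.22 without replicate 1 (adjusted p = 0.00308). DESeq2 gave -1.43 (adjusted p = 9.67e-07), and without a filter on low counts the value was -1.48 (adjusted p = 0.0276). The change was negative in 16 of 16 alternatives, from -1.65 to -1.37, and passed in these 4, with adjusted p from 9.67e-07 to 0.973 over all 16.

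Runx1 was 57.2 and 106 CPM with panobinostat against 27.5 and 22.2 with vehicle. Both treated libraries were above, and replicate 2 was the farther of them. The log2 fold change was 1.71 ± 0.40 (0.74 to 2.69; 3.28-fold; unadjusted p = 0.00476, adjusted p = 0.174). It was 1.15 ± 0.30 without panobinostat pDC replicate 2 and 2.08 ± 0.29 without replicate 1. DESeq2 gave 1.75 (adjusted p = 0.00674). Over all 16 alternatives the value ran from 1.15 to 2.08, with adjusted p from 0.00205 to 0.973.

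The remaining 6 had adjusted p values of 0.438 or more. Bcl11a had a log2 fold change of -0.33 ± 0.18 (-0.77 to 0.11), and -0.30 ± 0.22 without panobinostat pDC replicate 2 (adjusted p = 0.457). Cbfb had 0.51 ± 0.29 (-0.19 to 1.20), 0.26 ± 0.19 without replicate 2 and 0.67 ± 0.19 without replicate 1. For Runx2, Zeb2, Ets1 and Runx3 the treatments overlapped, with 1 panobinostat library on each side of the vehicle values. Their log2 fold changes were 0.57 ± 0.46, -0.14 ± 0.55, -0.09 ± 0.82 and -0.01 ± 0.56. Their intervals were wide, from -0.55 to 1.68 for Runx2, -1.47 to 1.19 for Zeb2, -2.08 to 1.90 for Ets1 and -1.38 to 1.35 for Runx3. Without replicate 2 the values were 1.06 ± 0.28, 0.36 ± 0.46, 0.47 ± 0.78 and -1.20 ± 0.29, and without replicate 1 they were -0.31 ± 0.29, -1.06 ± 0.49, -1.18 ± 0.87 and 0.61 ± 0.27. All 4 thus changed sign with the library left out, and none of these 8 values passed.

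Other markers also set the 2 panobinostat pDC libraries apart. In replicate 2, where Runx1 and Runx3 were high and Runx2, Zeb2 and Ets1 low, the summed cDC markers were 4150 CPM, against 2120 to 2800 in the other pDC libraries. The largest parts of that sum were Cd209a (1880 CPM) and Clec10a (666 CPM), the markers that were higher in pDC than in cDC, and H2-DMb2 (653 CPM). Xcr1 and Itgam were at 0 there, and Cd24a was 17.6 CPM against 38.2 to 54.9 in the other pDC libraries. Higher than in those libraries were Zbtb46 (19.6 CPM against 2.37 to 8.27), Batf3 (19 against 0.857 to 1.49), Itgae (32.6 against 0.0496 to 0.919) and Naaa (49.7 against 17.8 to 26.5). The summed NK cell markers were 1340 CPM there, against 181 to 599, although 11 of those 14 genes, Ncr1 and Klrb1c among them, were at 0 in it. Most of that sum was Klrd1 (832 CPM) and Klrk1 (487 CPM). The summed T cell markers were 1100 CPM against 616 to 1990, with Cd3e at 0 in both panobinostat pDC libraries, and the B cell markers 4990 against 3730 to 4060, mostly Ighm (3260 CPM). Their part in the values of the 8 genes was not tested.

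**Figure D4:**
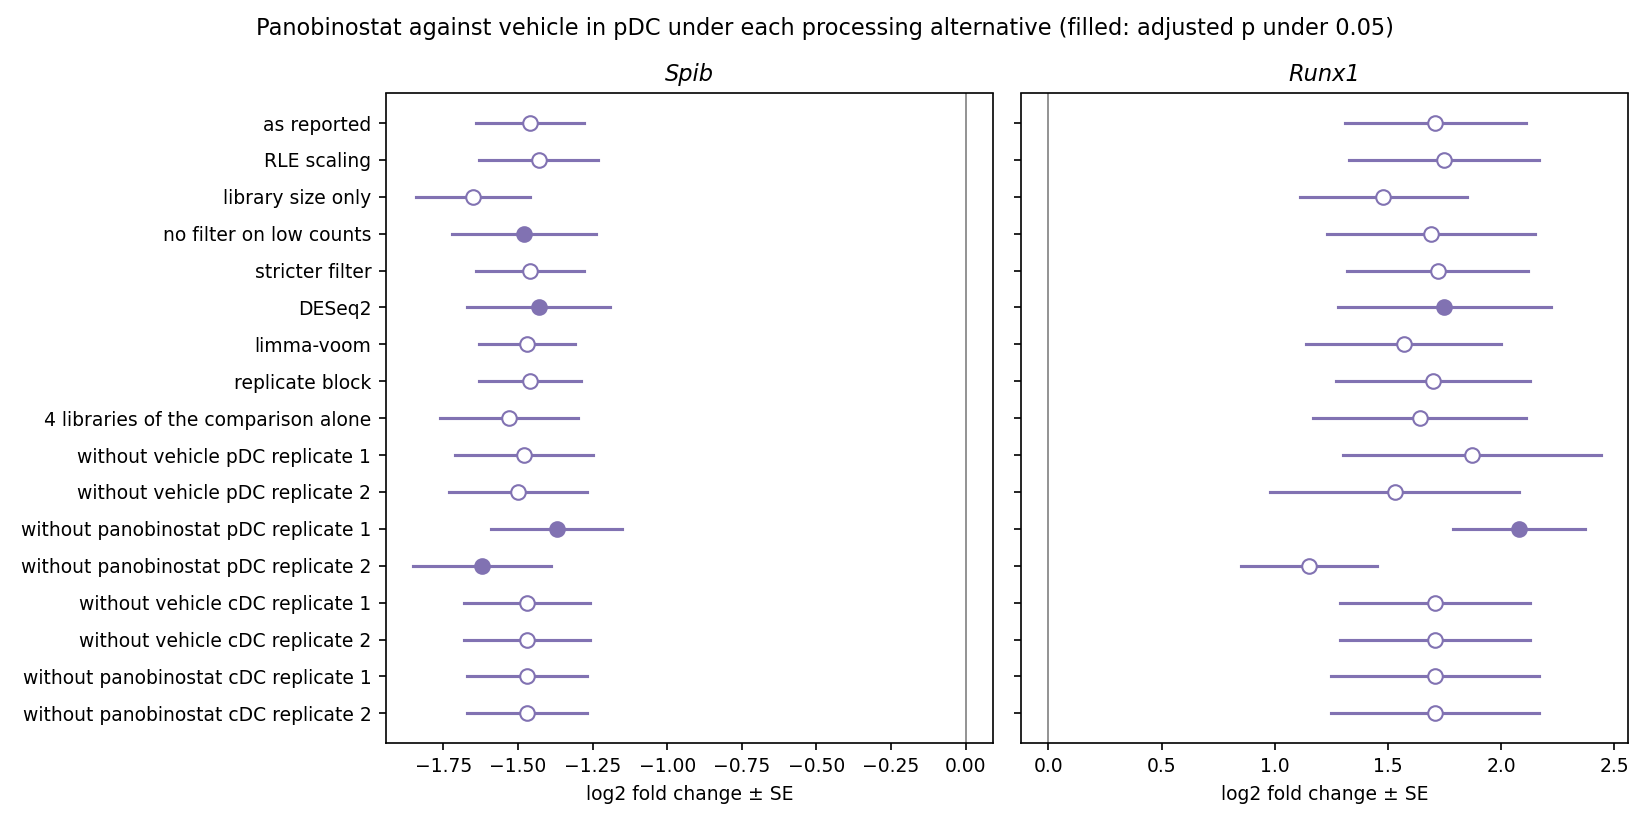
Log2 fold change ± SE of Spib (left) and Runx1 (right) for panobinostat against vehicle in pDC, as reported and under each of 16 processing alternatives, filled where the adjusted p was under 0.05. Spib lies between -1.65 and -1.37 and Runx1 between 1.15 and 2.08 in all of them, with 4 and 2 filled points.

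In cDC none of the 8 genes passed, and neither did any other gene (0.0% of 14238 by edgeR, with 1.45% at an unadjusted p under 0.05 and 15 genes called by DESeq2). The adjusted p values of all 8 were 1. At an unadjusted p under 0.05 there were again 2, Spib and Bcl11a, and these were also the 2 whose treated and untreated libraries did not overlap. Spib was below in both libraries, as 18.8% of all genes were, and Bcl11a above, as 22.2% were. The median of the 8 was -0.08 and that of all genes 0.00.

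Spib was 40.0 and 31.8 CPM in panobinostat cDC against 67.4 and 62.2 in vehicle cDC. The log2 fold change was -0.85 ± 0.18 (-1.29 to -0.41; unadjusted p = 0.003), which stood 9th by p among the 14238 genes, and it was negative in 16 of 16 alternatives, from -1.02 to -0.69. B cells also express Spib, and the B cell markers in these cDC libraries summed to 1160 and 2240 CPM with vehicle and 682 and 997 with panobinostat. Between the treatments the B cell sum was lower with panobinostat, as Spib was. Within each treatment the library with the higher B cell sum had less Spib. The part of B cells in the value was not tested. Bcl11a was 250 and 244 CPM against 184 and 149, a log2 fold change of 0.57 ± 0.18 (0.12 to 1.01; unadjusted p = 0.0198), positive in 16 of 16 alternatives, from 0.42 to 0.74. The other 6 had unadjusted p values of 0.316 or more. Their log2 fold changes were -0.60 ± 0.55 for Zeb2, -0.21 ± 0.47 for Runx2, 0.16 ± 0.56 for Runx3, -0.15 ± 0.29 for Cbfb, 0.06 ± 0.83 for Ets1 and 0.00 ± 0.39 for Runx1.

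The panobinostat effect in pDC was then set against that in cDC in 1 fit, as the difference between the log2 fold changes. None of the 8 differences passed, beside 0.00702% of all genes (1 of 14238), and 2 had an unadjusted p under 0.05, beside 7.77% of all genes. Bcl11a had the smallest p, with a fold change of -0.33 in pDC and 0.57 in cDC and a difference of -0.90 ± 0.26 (-1.52 to -0.27; unadjusted p = 0.0123, adjusted p = 0.44). Runx1 had 1.71 and 0.00, a difference of 1.72 ± 0.56 (0.37 to 3.07; unadjusted p = 0.0203, adjusted p = 0.491). For Spib, whose fold change was negative in both, the difference was -0.61 ± 0.26 (-1.23 to 0.01; adjusted p = 0.647), and -0.75 ± 0.28 without panobinostat pDC replicate 2 (adjusted p = 0.233). Without panobinostat pDC replicate 2, Bcl11a differed by -0.85 ± 0.28 (adjusted p = 0.198) and Runx1 by 1.18 ± 0.39 (adjusted p = 0.203). Without replicate 1 they differed by -1.0 ± 0.28 (adjusted p = 0.0309) and 2.08 ± 0.39 (adjusted p = 0.00768), and Cbfb by 0.81 ± 0.25 (adjusted p = 0.0442).

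Relatives, partners and described targets of the 8 factors were then counted, from gene lists that were written with earlier results of these data known and so are no independent evidence. The list counts between the cell types stand beside 9.73% of all genes tested that passed in vehicle and 18.0% in panobinostat. Of the genes of these lists that passed in panobinostat between the cell types, Irf7 alone lost its call without panobinostat pDC replicate 2. Of 26 ETS family genes, 19 were tested. In vehicle, 2 were higher in pDC (Spib and Elf1) and 1 lower (Etv3), with a list median of -0.37. In panobinostat, 2 were higher (Spib and Elf1 again) and 3 lower (Etv3, Ets2 and Elk1), with a median of -1.21. Elf1, a lymphoid ETS factor, was 368 and 305 CPM in pDC after vehicle, 342 and 315 after panobinostat, 195 and 175 in cDC after vehicle and 173 and 192 after panobinostat, a difference of 0.86 ± 0.17 in vehicle (adjusted p = 0.0322). Etv3, an ETS repressor, went the other way, at 18.5 and 17.8, 10.9 and 6.6, 234 and 204, and 110 and 167 CPM in the same order (-3.59 ± 0.34, adjusted p = 0.00288).

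Spi1, which codes for PU.1, the nearest relative of SPIB with Spic, was low in pDC: 3.18 and 32.3 CPM in vehicle, 9.52 and 55.7 in panobinostat, 321 and 438 in vehicle cDC and 453 and 177 in panobinostat cDC. All 4 cDC libraries were above all 4 pDC libraries, but the pDC replicates lay far apart, and the differences of -4.42 ± 1.33 and -3.28 ± 1.26 did not pass (adjusted p = 0.0966 and 0.123). Per kilobase, Spib exceeded Spi1 by 184-fold and 18.3-fold in the vehicle pDC libraries and 20.8-fold and 4.09-fold in the panobinostat ones. The ratio was 0.153 and 0.104 in vehicle cDC and 0.0644 and 0.131 in panobinostat cDC. Spib thus led in every pDC library and Spi1 in every cDC library, and within pDC the replicates differed far more in Spi1 than in Spib.

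Of 23 RUNX cofactor genes, 21 were tested. None passed in vehicle (median 0.07), and in panobinostat Tle6, a Groucho family corepressor, was higher in pDC and Cbfa2t3 lower (median -0.25). Cbfa2t3, whose product MTG16 is a corepressor needed for pDC, was 178 and 131 CPM in pDC after vehicle, 90.7 and 22.9 after panobinostat, 345 and 287 in cDC after vehicle and 362 and 328 after panobinostat. Every pDC library was below every cDC library, by 1.03 ± 0.58 log2 units in vehicle (adjusted p = 0.353) and by 2.60 ± 0.61 in panobinostat (adjusted p = 0.035). Tle6 was 1.82 and 2.81, 12.9 and 15.2, 1.07 and 0.693, and 1.16 and 0.652 CPM in the same order of groups (3.95 ± 0.74 in panobinostat, adjusted p = 0.0196). Without panobinostat pDC replicate 2 the panobinostat differences were -1.99 for Cbfa2t3 (adjusted p = 0.00375) and 3.76 for Tle6 (adjusted p = 0.00452).

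Of 24 genes for partners and paralogs of BCL11A and ZEB2, 22 were tested. In vehicle 1 was higher in pDC, Mta3 (0.94 ± 0.20, adjusted p = 0.0384), a subunit of the NuRD deacetylase complex, and none was lower (median -0.24). In panobinostat Mta3 was again higher, and 3 other NuRD genes, Chd3, Gatad2a and Gatad2b, were lower (median -0.44). Beside these 1 and 3 of 22 genes, 7.76% of all genes were higher and 10.2% lower, so the counts were near the share of all genes. Bcl11b, the T cell paralog of Bcl11a, had at most 0.241 CPM in any library and was not tested. Zeb1, the paralog of Zeb2, was 26.2 and 22.4 CPM in pDC after vehicle, 18.4 and 1.39 after panobinostat, 37.6 and 40.5 in cDC after vehicle and 42.6 and 45 after panobinostat. All of its pDC values were below its cDC values, the opposite order to Zeb2, without passing (adjusted p = 0.793 and 0.186).

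All 14 genes listed as described targets of these factors in dendritic cells were tested. In vehicle, 6 were higher in pDC and 4 lower (median -0.67), and in panobinostat 6 and 5 (median -0.69). Tcf4, Ccr2, Irf7, Il7r and Cd4 were among those higher in both. In panobinostat Irf7, an interferon regulatory factor, lost its call without panobinostat pDC replicate 2 (1.02, adjusted p = 0.0533), while Tcf4, Ccr2, Il7r and Cd4 kept theirs. Ccr2, a chemokine receptor described as a RUNX2 target, was 399 and 377 CPM in pDC after vehicle, 832 and 971 after panobinostat, 55 and 46.8 in cDC after vehicle and 142 and 191 after panobinostat (2.93 ± 0.22 in vehicle, adjusted p = 0.00169). Its panobinostat libraries were above the vehicle libraries in both cell types, by 1.22 in pDC (unadjusted p = 0.000991, adjusted p = 0.128) and 1.71 in cDC (unadjusted p = 0.000157, adjusted p = 1), and neither passed. Cxcr4, a receptor that retains cells in the marrow, had at most 2.82 CPM in any library.

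Id2, the E protein inhibitor that ZEB2 is described to repress, was lower in pDC in both treatments. It was 5.95 and 10.2 CPM in pDC after vehicle, 21.1 and 71.7 after panobinostat, 492 and 771 in cDC after vehicle and 585 and 1050 after panobinostat (-6.29 ± 0.78 in vehicle, adjusted p = 0.00669). Both panobinostat pDC libraries were above the vehicle ones. The other 3 lower in vehicle were Bcl2a1a, Bcl2a1b and Bcl2a1d, survival genes so alike in sequence that their reads may have been split between them. Cd4, present on mouse pDC and also a Runx target in T cells, was 690 and 795 CPM in pDC after vehicle and 272 and 280 after panobinostat (-1.43, unadjusted p = 0.000402), with 91.0 to 126 in cDC. None of the 14 passed for panobinostat in pDC or in cDC.

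The list of dendritic cell transcription factors shared Tcf4, Id2, Irf7, Cbfa2t3 and Spi1 with the lists above. Of its 26 genes, 24 were tested. In vehicle, 3 were higher in pDC (Tcf4, Tcf12 and Irf7) and 4 lower (Id2, Zbtb46, Batf3 and Relb), with a median of -0.59, and in panobinostat 4 were higher and 7 lower, with a median of -0.52. None of the genes tested in the ETS, RUNX cofactor, partner and dendritic cell factor lists passed for panobinostat in either cell type. Tcf4 was 1410 and 1060 CPM in pDC after vehicle, 1600 and 1050 after panobinostat, 49.9 and 55.7 in cDC after vehicle and 45.8 and 49.1 after panobinostat (4.55 ± 0.30 in vehicle, adjusted p = 0.00135). In pDC its treatments overlapped, as those of Runx2 did and unlike those of Spib.

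Finally, the genes whose pattern over the 8 libraries lay nearest to each of the 8 were found among 8286 genes whose mean log2 CPM reached 3, by the root mean square difference of log2 CPM after each gene's own mean was taken off. A smaller value is a closer pattern, and the libraries shared by all genes limit what closeness says. Nearest to Spib were B3gnt8 (0.37), Pim2 (0.42) and Sema4b (0.42), and nearest to Runx2 were Tcf4 (0.34), Tmem221 (0.35) and Gria3 (0.38). Nearest to Bcl11a were Trim25 (0.11), Cd180 (0.13) and Acap1 (0.14). Nearest to Zeb2 was a gene ID without a symbol (0.24), then Mpp1 (0.31) and another ID without a symbol (0.34). Nearest to Ets1 were Ablim1 (0.31), Gbp6 (0.53) and Rabgap1l (0.55). Nearest to Runx1 were Atp2a2 (0.24), Mpp7 (0.27) and Cdc25a (0.27), to Runx3 Nacc1 (0.16), Actr1b (0.16) and Rgl2 (0.18), and to Cbfb Rnaseh2b (0.088), Meaf6 (0.10) and Ran (0.12). B3gnt8 had the stepped pattern of Spib in pDC, with means of 160 CPM in vehicle and 77.2 in panobinostat, and 9.35 and 7.98 in cDC.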

How the data were processed

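The authors deposited 1 table of unnormalized whole-number counts of reads, with Entrez gene IDs as rows and the 8 libraries as columns. Per the submitters' processing notes, the authors used bcl2fastq (2.17.1.14), FastQC (0.11.6), cutadapt (2.1), HISAT2 (2.1.0) on mm10, featureCounts (Subread 2.0.0) and limma. Per the labels' protocols, libraries were made with a NEBNext Single Cell/Low Input kit. The sources used here state neither the strand setting, nor the annotation, nor the handling of multiply aligned reads. The column label D5W was read as vehicle and LBH as panobinostat. Of 27179 IDs, 25275 (92.99%) matched a symbol, and the 1904 others stayed in the tests. Total counts were 13124861 to 20657429. No molecular identifiers are recorded, so counting errors do not cover amplification.

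All 8 libraries were fitted together in edgeR (4.0.16, R 4.3.3): filterByExpr (minimum count 10, minimum total 15), TMM, 1 coefficient per group, 4 residual and 2.32 prior degrees of freedom, quasi-likelihood F test, Benjamini-Hochberg adjustment over 14238 genes, threshold 0.05. CPM used TMM-scaled library sizes, and log2 CPM a prior count of 2. Lengths are from GENCODE M21 transcripts linked to RefSeq, and promoters from the RefSeq table (GRCm38.p6), which has no entry for Ets1. The pipeline was tested on simulated data. The alternatives were other scalings and filters, DESeq2 (1.42.0), limma-voom (3.58.1), a replicate block, the 4 libraries of a comparison alone, and the omission of each library.

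The 8 genes and the gene lists were chosen with earlier results of these data known. Named were all 8 genes, up to 3 genes per list with the smallest p in a comparison, list genes described as paralog, partner or target, the 3 nearest patterns per gene, and overlapping genes. The other list genes named (called genes beyond the first 3) were chosen after their values were seen. The labels number replicates 1 and 2 in every group. Deviations of same-numbered libraries from their group means correlated with r = 0.146 to 0.489 over the 6 pairs of groups, each above 0.1. The replicate number was used only as a block in an alternative fit. What same-numbered pools have in common is not stated, and the values reported carry no block.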

Additional observations from a re-analysis of the deposited data

How the results depend on the processing

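Groups of 2 libraries set the main limit: omission of 1 library leaves an arm with 1, which is then assumed to vary like the other groups. For pDC against cDC in vehicle, 3 of the 8 genes passed as reported, 5 with DESeq2, 6 with the 4 libraries alone and 1 to 6 over the omissions (1, Spib, without vehicle cDC replicate 2; 6 without either panobinostat pDC library). In panobinostat 3 passed as reported, 5 without a filter, 5 with DESeq2, 1 with the 4 libraries alone and 1 to 7 over the omissions (7 without panobinostat pDC replicate 2, 5 without replicate 1, 1 without panobinostat cDC replicate 2). For panobinostat in pDC 0 passed as reported, 1 without a filter, 2 with DESeq2 and 0 to 3 over the omissions (3 without panobinostat pDC replicate 1). In cDC 0 passed in every alternative run. For the difference of the effects 0 passed as reported, and 0 to 3 over the omissions (3 without panobinostat pDC replicate 1). Calls over all genes also shifted with the setting, as given below, so the shifts are not particular to the 8 genes. The cause of these shifts was not tested.

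With the replicate block, 4 of the 8 passed in pDC against cDC in both vehicle and panobinostat, as Zeb2 joined, and the block changed no other call on the 8. It called 1241, 2302, 0, 0 and 0 genes in the 5 comparisons, against 1385, 2557, 13, 0 and 1 as reported.

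Signs changed for values that had not passed in either setting. For panobinostat in pDC, Runx3 was 0.03 with RLE scaling and 0.03 with DESeq2. Over the omissions Runx3 ran from -1.20 to 0.61, Zeb2 from -1.06 to 0.36, Ets1 from -1.18 to 0.47 and Runx2 from -0.31 to 1.06. In cDC, Ets1 was -0.09 with library size only and -0.08 with limma-voom, and Runx1 was 0.02 with limma-voom. Over the omissions Ets1 ran from -1.12 to 1.05, Zeb2 from -1.03 to 0.02, Runx2 from -0.43 to 0.05, Runx1 from -0.28 to 0.35 and Runx3 from -0.08 to 0.38. For the difference, Ets1 ran from -1.24 to 1.03, Runx2 from -0.11 to 1.29, Zeb2 from -0.46 to 0.98 and Runx3 from -1.35 to 0.44. The directions of Spib, Bcl11a and Cbfb held in every alternative run of every comparison.

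Counts over all genes moved more. In vehicle, 1385 genes passed as reported, 2880 with DESeq2, 4491 with the 4 libraries alone and 288 to 5531 over the omissions. In panobinostat these were 2557, 4495, 161 and 346 to 9796. For panobinostat in pDC they were 13 as reported, 2 with RLE (1 higher and 1 lower, against 2 and 11), 9 with library size only (3 higher and 6 lower), 68 without a filter, 914 with DESeq2, 0 with limma-voom, the block or the 4 libraries alone, and 8227 without panobinostat pDC replicate 1 or 719 without replicate 2. In cDC DESeq2 called 15. For the difference the count was 1 as reported, 5 without a filter, 290 with DESeq2, 0 with RLE, library size only, limma-voom or the block, and up to 6457 over the omissions (without panobinostat pDC replicate 1). Library size as the only scaling moved the median of all genes by -0.14 for panobinostat in pDC and in cDC, and RLE by -0.13 for pDC against cDC in vehicle.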
